A study of Danio rerio with 56 samples.

Results

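The 300 longest detected transcripts were examined in RNA of zebrafish eggs and embryos whose parents had eaten benzo[a]pyrene (BaP) or control food. They were selected on their length and on their estimated counts. A transcript counted as detected when its estimated read count was at least 10 in each of the 24 RNA libraries. Of 57192 transcripts listed in every table, 17696 were detected, and the 300 with the greatest length were taken, leaving 17396 other detected transcripts for comparison. Their length and their presence in every library are therefore no findings, and a transcript that was absent from 1 stage could not enter.

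Sexually mature fish of the 5D strain, 120 days old at the start, ate flakes carrying BaP dissolved in acetone at 1250 µg per g of food, a dose given as 25 µg per g of fish, or flakes carrying acetone alone, for 21 days. The 6 groups held 4 RNA libraries each. They were eggs of BaP-fed mothers, eggs of control mothers, and 10 hpf (hours post fertilisation) embryos of 4 crosses, in which the mother, the father, both parents or neither had eaten BaP. One embryo group carries a label that names BaP without a parent, and it was taken as the cross of 2 BaP-fed parents, since each remaining cross of the design has its own label. The labels do not tie a replicate to a tank or a spawning, so p-values measure the spread between these libraries, which may be technical.

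An egg carries RNA that its mother loaded, and the embryo later degrades much of it while its own genome is switched on, the maternal-to-zygotic transition. Embryos at 10 hpf are at the end of gastrulation and past that switch. Very long transcripts commonly encode large structural, adhesion, scaffold or motor proteins, and transcribing a long gene takes more time than a short one, which matters while cell cycles are short. BaP is a polycyclic aromatic hydrocarbon that activates the aryl hydrocarbon receptor and is metabolised by the cytochrome P450 enzymes this receptor induces.

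The members ran from 9066 to 88553 bases with a median of 10610.5, against a median of 2157 bases for the other detected transcripts. The members of greatest length stood far beyond the rest at 88553, 78795 and 67298 bases, followed by one of 30840. Lengths over 20000 bases were found in 11 members, and 112 members were at most 10000 bases long. The 3 members just inside the limit had 9074, 9069 and 9066 bases and mean counts of 318, 2219 and 1309, and the first 3 outside it had 9043, 9033 and 9019 bases and mean counts of 2578, 284 and 3016. In all, 557 listed transcripts had at least 9066 bases, and 257 of them were not detected by the rule. Of those 257, 22 had no count in any library, 35 reached 10 counts in all 16 embryo libraries and 59 did so in all 8 egg libraries. No identifier matched the name tables in use here (0 of 57192), so members are given by transcript identifier and no role is assigned to any of them.

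Members were counted more often than other transcripts but were less abundant per length. Their median level was 33.5 CPM (counts scaled to library size with TMM factors) against 15.9 CPM for the others, while their median deposited TPM, which divides by length, was 4.19 against 12.4. A longer transcript reaches the floor of 10 counts at a lower TPM, so the rule itself lets in members of lower TPM. The 10th percentile of mean TPM was 0.416 for members and 2.00 for others. How much of the lower median follows from the rule was not tested. The member with the highest mean TPM, ENSDART00000135230.2 (10963 bases), averaged 114 TPM over all libraries. It had 1377, 1446, 1750.0 and 1568 CPM in embryos of 2 BaP-fed parents, against 768, 731, 692 and 746 CPM in eggs of BaP-fed mothers. In control embryos it had 1621, 1713, 1992 and 1659 CPM, against 772, 776, 782 and 838 CPM in control eggs. Every embryo library stood above every egg library of its own lineage, and the rise was 1.10 ± 0.09 and 1.13 ± 0.08 on the log2 scale (SE; edgeR adjusted p = 8.1e-06 and 2.2e-06).

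Together the members took a small and steady part of each library, lowest in embryos of BaP-fed fathers. They held 2.19%, 2.27%, 2.33% and 2.32% of the estimated counts in the 4 libraries of BaP-fed fathers, against 2.57%, 2.72%, 2.77% and 2.55% in control embryos. These 2 groups did not overlap. The share ran from 2.39% to 2.71% with BaP-fed mothers and from 2.59% to 2.90% with both parents BaP-fed, so all 12 other embryo libraries were above all 4 of the BaP-fed fathers. By summed TPM the shares were 0.232% to 0.260% with BaP-fed fathers and 0.272% to 0.306% in control embryos, and 1 library of BaP-fed mothers, at 0.259%, lay within the range of the BaP-fed fathers. In eggs the count share was 2.38% to 2.61% with BaP-fed mothers and 2.44% to 2.69% in controls, with overlap. In bulk RNA of this kind, fewer cells of a type and less RNA per cell cannot be told apart.

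**Figure D1:**
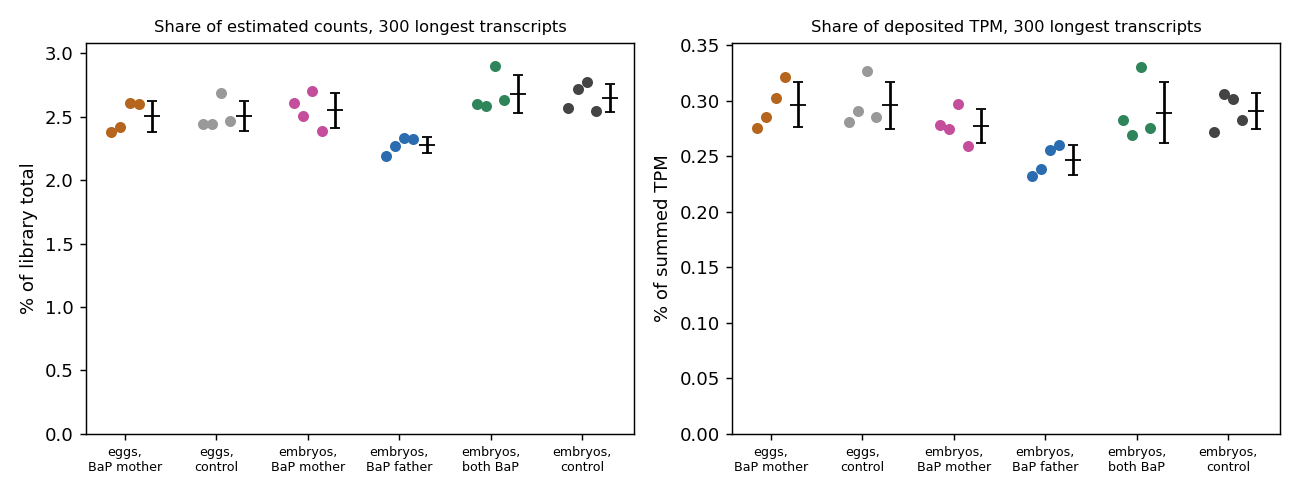
Share of all estimated counts (left, % of the library total) and of summed TPM (right, %) held by the 300 longest detected transcripts in each of 24 libraries; points are libraries and bars the mean ± SD of 4. The 4 libraries of BaP-fed fathers sit at 2.19% to 2.33% of counts, below the other 12 embryo libraries.

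Control embryos differed from control eggs in most members. In edgeR's quasi-likelihood test at a Benjamini-Hochberg adjusted p under 0.05, 133 of the 300 rose and 102 fell, together 78.3%, beside 78.9% of the other detected transcripts (38.2% higher and 40.7% lower) and 75.7% of all transcripts tested. The members' median log2 fold change was 0.16, against -0.07 for the others. Embryos of 2 BaP-fed parents, set against eggs of BaP-fed mothers, had 128 members higher and 91 lower, 73.0% in all, beside 77.0% of the others (37.6% higher and 39.5% lower) and 73.6% of all tested, with medians of 0.23 and -0.06.

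The sign of these medians depends on the scaling. With library totals alone the members' medians were -0.20 in the control and -0.11 in the BaP lineage, and the calls were 107 higher against 129 lower and 103 higher against 121 lower. With upper-quartile factors they were 149 higher against 87 lower and 147 higher against 78 lower. The gap between members and other transcripts stayed near 0.23 in the control lineage and 0.29 in the BaP lineage under these scalings and under RLE factors. It fell to 0.02 and 0.04 with a smooth trend on length removed, which takes out such a gap by construction. Then 117 rose and 116 fell in the control lineage, and 109 rose and 112 fell in the BaP lineage. With TMM factors the control-lineage median was 0.26 for transcripts of at most 1000 bases. It was -0.18, -0.23 and -0.10 in the classes from 1001 to 4998 bases, 0.18 for 5001 to 7988 and 0.28 for 8001 to 9043. In the BaP lineage these medians were 0.22, -0.18, -0.20, -0.07, 0.19 and 0.24. A median above that of the pooled others was thus not particular to the members.

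The largest rises were in members that were low in eggs. ENSDART00000142155.3 (12826 bases) had 277, 280.5, 276 and 284 CPM in control embryos, against 1.55, 1.71, 2.66 and 2.11 CPM in control eggs. All 4 embryo libraries were above all 4 egg libraries (log2 fold change 7.11 ± 0.18, SE; edgeR adjusted p = 8.6e-09). ENSDART00000151234.2 (19233 bases) rose in both lineages. It had 1684, 1312, 2193 and 1336 CPM in embryos of 2 BaP-fed parents, against 16.2, 15.1, 13.5 and 9.43 CPM in eggs of BaP-fed mothers (log2 fold change 6.95 ± 0.28, SE; edgeR adjusted p = 2.4e-07). Control embryos had 1780.1, 1851, 2221 and 1824 CPM of it, against 21.0, 13.0, 11.3 and 14.5 CPM in control eggs (log2 fold change 6.99 ± 0.24, SE; edgeR adjusted p = 3.1e-08). No embryo library came near an egg library in either lineage.

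The strongest rise in the BaP lineage was that of ENSDART00000112067.4 (12639 bases). It had 202, 166, 184 and 195 CPM in embryos of 2 BaP-fed parents, against 0.580, 0.322, 0.629 and 0.240 CPM in eggs of BaP-fed mothers (log2 fold change 8.76 ± 0.31, SE; edgeR adjusted p = 1.6e-07). In control eggs it had 26.6, 0.819, 1.46 and 0.260 CPM, so 1 library stood far above the other 3, and its change in the control lineage was 4.65 ± 1.27 on the log2 scale (SE; edgeR adjusted p = 0.0089). This library does not belong to the BaP lineage.

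Members with the largest falls had far more CPM in eggs than in embryos. ENSDART00000097773.5 (13902 bases) had 2.31, 1.99, 1.98 and 1.15 CPM in control embryos, against 101, 89.6, 62.0 and 168 CPM in control eggs (log2 fold change -5.82 ± 0.38, SE; edgeR adjusted p = 1.3e-06). ENSDART00000102566.5 (10818 bases) had 1.41, 2.48, 2.28 and 1.90 CPM in control embryos, against 53.8, 55.03, 43.5 and 44.3 CPM in control eggs (log2 fold change -4.62 ± 0.20, SE; edgeR adjusted p = 1.1e-07). The groups were far apart for both. Among embryos of 2 BaP-fed parents, replicate 2 carried 18.1 and 18.9 CPM of these transcripts, while the other 3 libraries had 1.72 to 2.26 and 2.34 to 3.93 CPM.

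In the BaP lineage ENSDART00000183432.1 (9487 bases) had 3.65, 3.20, 2.30 and 3.83 CPM in embryos, against 45.0, 47.7, 47.5 and 57.6 CPM in eggs (log2 fold change -3.89 ± 0.19, SE; edgeR adjusted p = 5.6e-07). ENSDART00000152876.2 (10580 bases) had 4.47, 1.29, 1.73 and 3.46 CPM in embryos, against 11.3, 34.1, 70.4 and 46.1 CPM in eggs (log2 fold change -3.85 ± 0.63, SE; edgeR adjusted p = 0.00062). Neither pair of groups overlapped, and egg replicate 1 was the lowest of its group for the second.

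The lineages share no libraries, and no member was called in opposite directions in them. Of the 300 members, 120 rose in both and 87 fell in both. A further 13 rose and 15 fell in the control lineage alone, 8 rose and 4 fell in the BaP lineage alone, and 53 were called in neither. The sign of the fold change was shared by 288 members (96.0%), beside 95.2% of the other detected transcripts. Across the 300 members, which are not independent replicates, the fold changes of the lineages correlated with a Pearson r of 0.966, and across the others with 0.982. Leaving out replicate 2 of the embryos of 2 BaP-fed parents gave 124 higher and 88 lower in the BaP lineage, beside 71.1% of all transcripts tested called in that fit.

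**Figure D2:**
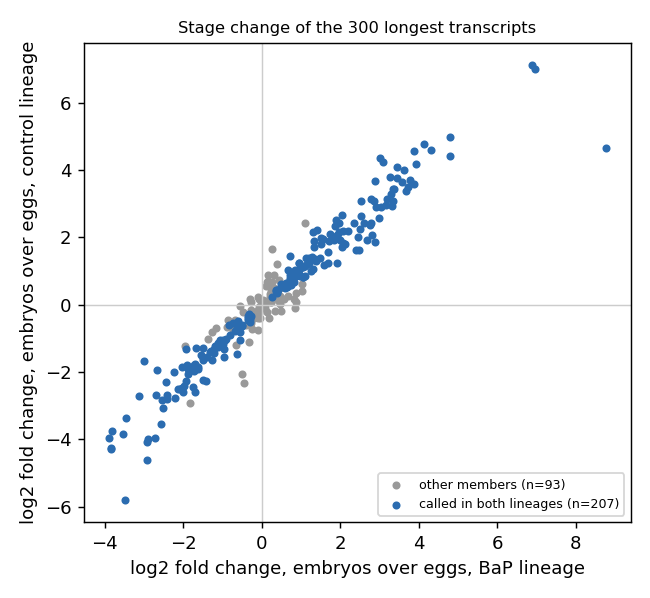
Log2 fold change of each of the 300 members from eggs to 10 hpf embryos in the BaP lineage (x) and the control lineage (y); blue points are the 207 called in both lineages and grey points the other 93. Points run along the diagonal, and none called in both lies in an opposite-sign part of the plot.

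Eggs of BaP-fed mothers were set against control eggs to look for an effect of the mothers' diet on the loaded RNA. No member passed in edgeR (0 of 300, beside 0.00% of the others). Of the 300 members, 21 had an unadjusted p under 0.05, a larger share than the 3.78% of the others (658 of 17396). DESeq2 called 2, beside 0.297% of all transcripts it tested, and an edgeR fit of all 24 libraries called 1, beside 0.152%. The median log2 fold change was -0.01 for members and 0.00 for others. ENSDART00000109440.4 (10402 bases) had 9.37, 9.28, 9.65 and 8.37 CPM in eggs of BaP-fed mothers, against 7.17, 7.21, 5.70 and 5.47 CPM in control eggs (log2 difference 0.51 ± 0.15, SE; edgeR adjusted p = 0.9998). ENSDART00000123150.4 (13578 bases) had 11.4, 12.2, 10.4 and 10.97 CPM in eggs of BaP-fed mothers, against 26.9, 18.6, 15.9 and 22.9 CPM in control eggs (log2 difference -0.92 ± 0.17, SE; edgeR adjusted p = 0.962). The groups did not overlap for either, although neither passed. The second passed in DESeq2 (adjusted p = 0.00051) and in the fit of all 24 libraries (edgeR adjusted p = 0.0079).

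Embryos whose mother alone was BaP-fed were set against control embryos. No member passed (edgeR, 0 of 300, beside 0.00% of the others). DESeq2 also called 0 members, beside 0.23% of all transcripts it tested. An unadjusted p under 0.05 was found for 8 (2.67%), beside 4.28% of the others. The median log2 fold change was -0.05 for members and 0.01 for others, and 196 members (65.3%) were below 0, beside 47.3% of the others. ENSDART00000183694.1 (10825 bases) had 3.38, 2.89, 2.68 and 3.64 CPM with a BaP-fed mother, against 1.94, 1.96, 2.11 and 2.41 CPM in controls (log2 difference 0.58 ± 0.35, SE; edgeR adjusted p = 1.0). ENSDART00000160900.2 (9167 bases) had 0.541, 0.618, 0.748 and 0.803 CPM with a BaP-fed mother, against 0.808, 1.39, 1.22 and 1.45 CPM in controls (log2 difference -0.82 ± 0.37, SE; edgeR adjusted p = 1.0). Both were low transcripts whose groups did not overlap and which did not pass.

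Embryos whose father alone was BaP-fed showed lower levels of long transcripts than control embryos. The members' median log2 fold change was -0.18, against 0.04 for the other detected transcripts, and 234 members (78.0%) were below 0, beside 42.1% of the others. In edgeR 11 members fell and 0 rose (3.67% lower), beside 0.586% of the others lower and 0.0115% higher (0.598% in all, and 0.424% of all transcripts tested). The share called lower was 2.05% for transcripts of 5001 to 7988 bases and 1.86% for 8001 to 9043 bases. All 4 libraries of BaP-fed fathers lay below all 4 controls for 50 members, and above them for 4, beside 3.90% of the others below and 5.28% above. An unadjusted p under 0.05 was found for 90 members (30.0%), beside 12.4% of the others.

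The 11 members that fell had 9066 to 16375 bases, log2 fold changes of -0.99 to -0.51 and edgeR adjusted p-values of 0.0188 to 0.0445. The mean of BaP-fed fathers was the lowest of the 4 crosses for all 11. ENSDART00000169505.2 (9914 bases) had 33.1, 38.9, 40.0 and 33.6 CPM with a BaP-fed father, against 62.5, 80.9, 71.7 and 68.8 CPM in control embryos. Every library of BaP-fed fathers was below every control (log2 fold change -0.99 ± 0.16, SE; edgeR adjusted p = 0.0188). ENSDART00000109485.5 (9074 bases) had 2.79, 3.05, 3.38 and 3.90 CPM with a BaP-fed father, against 4.96, 6.35, 5.26 and 6.37 CPM in controls, again with no overlap (log2 fold change -0.83 ± 0.16, SE; edgeR adjusted p = 0.0339). No member rose, and the upward one of smallest p, ENSDART00000057216.8 (10438 bases), had 4.23, 3.20, 3.48 and 5.38 CPM with a BaP-fed father, against 2.60, 2.42, 2.63 and 3.10 CPM in controls (log2 difference 0.57 ± 0.20, SE; edgeR adjusted p = 0.277). Its groups did not overlap. The call of ENSDART00000169505.2 ended when control replicate 2, control replicate 4, father replicate 1 or father replicate 2 was left out (edgeR adjusted p up to 0.0814). That of ENSDART00000109485.5 ended without any of control replicates 2, 3 and 4, father replicates 1 and 2, both-parents replicates 1 and 4 and mother replicate 3 (edgeR adjusted p up to 0.133).

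The 3 longest members were all lower with a BaP-fed father, but none passed this test. The longest, ENSDART00000125953.4 (88553 bases), had 61.3, 73.6, 73.8 and 68.5 CPM with a BaP-fed father, against 124, 131, 88.7 and 109 CPM in control embryos. The groups did not overlap (log2 difference -0.73 ± 0.17, SE; edgeR adjusted p = 0.0744). ENSDART00000109099.4 (78795 bases) averaged 8.80 ± 3.27 CPM with a BaP-fed father and 16.9 ± 5.94 CPM in controls (SD, n = 4 each), and its groups overlapped. The member of 67298 bases averaged 9.24 ± 2.02 CPM with a BaP-fed father and 16.4 ± 5.62 CPM in controls (SD, n = 4 each), and its groups overlapped as well. The edgeR adjusted p-values of these 2 were 0.170 and 0.199.

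**Figure D3:**
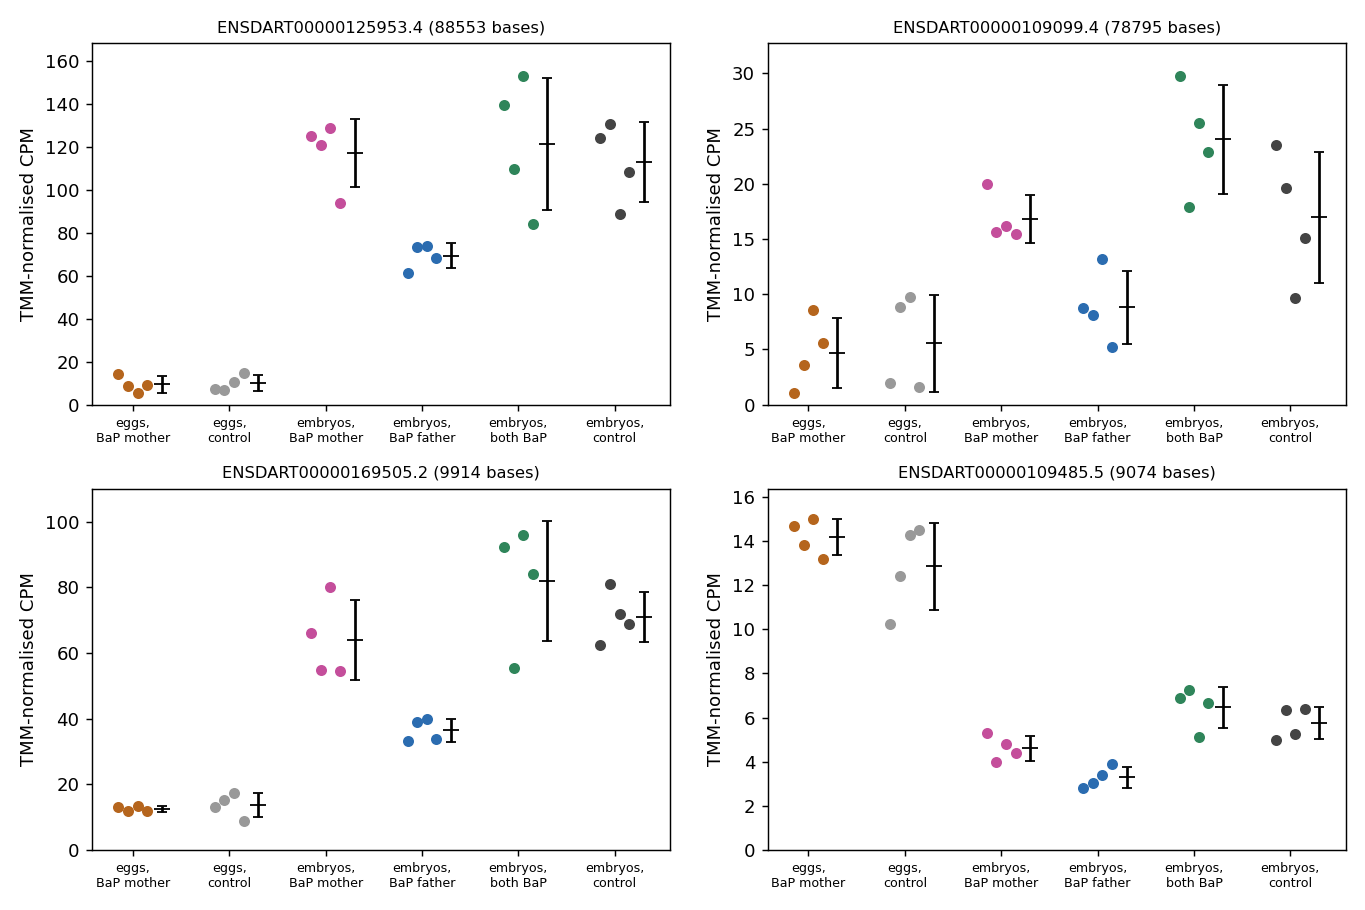
TMM-normalised CPM of 4 members in each of the 24 libraries; points are libraries and bars the mean ± SD of 4. In embryos, BaP-fed fathers have the lowest mean for all 4 members, at 69.3, 8.80, 36.4 and 3.28 CPM.

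The difference grew with length, within the members as well as across all detected transcripts. The median log2 fold change with a BaP-fed father was 0.08 for transcripts of at most 1000 bases, 0.07 for 1001 to 2000, 0.05 for 2001 to 3000, 0.01 for 3001 to 4998, -0.08 for 5001 to 7988, -0.09 for 8001 to 9043 and -0.18 for the members. Among members it was -0.31 for the 100 longest (11931 to 88553 bases), -0.16 for the next 100 (9924 to 11916 bases) and -0.11 for the shortest 100 (9066 to 9923 bases). The corresponding medians for the mother's diet were -0.05, -0.05 and -0.04 in these 3 classes, and those for both parents 0.03, 0.04 and 0.02.

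**Figure D4:**
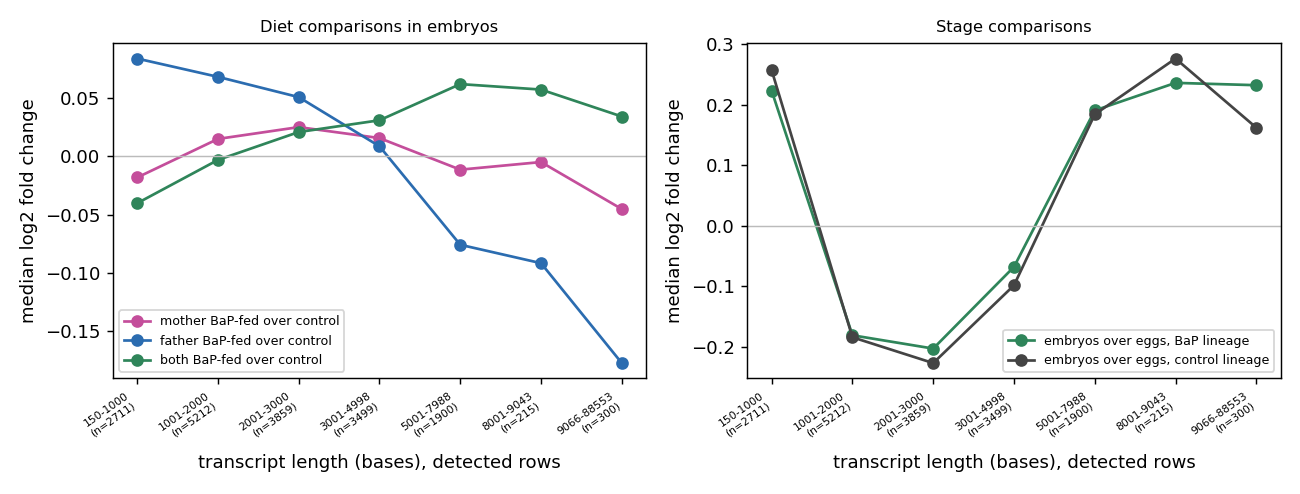
Median log2 fold change (y) by transcript length class in bases (x, number of transcripts in parentheses) for the 3 diet comparisons in embryos (left) and the 2 stage comparisons (right); the last class is the 300 members. The line for BaP-fed fathers descends to -0.18 in the last class, while the other diet lines stay within 0.1 of 0.

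The 4 libraries of BaP-fed fathers were alike in this respect. With each transcript's log2 CPM taken relative to its mean in the control embryo libraries other than the one described, the members' median minus that of the other transcripts was -0.22, -0.21, -0.18 and -0.19 on the log2 scale in those 4 libraries, and between -0.13 and 0.09 in the other 12 embryo libraries. The father's cross had the lowest mean of the 4 crosses for 165 members (55%), beside 22.7% of the other transcripts, and with library totals alone, a scaling chosen after seeing the data, for 223 members (74.3%), beside 41.4%. All 4 libraries of BaP-fed fathers were below all 12 other embryo libraries for 28 members (9.33%), beside 1.62% of the others. They were above all 12 for 0 members, beside 0.782% of the others, a share so small that 0 of 300 says little.

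Fewer transcripts were counted in this group than in control embryos, and TMM factors were lower on average. These factors were 0.813 to 0.902 with BaP-fed fathers and 0.884 to 0.935 in control embryos, with a small overlap. Between 36133 and 36659 transcripts had a count in libraries of BaP-fed fathers, against 37054 to 37560 in controls. Replicates 2 and 4 of BaP-fed mothers, at 36659 and 36464, lay within the range of BaP-fed fathers. Effective length, which the deposited tables give per library, was 89.99% to 90.7% of length over the members in control embryos. With BaP-fed fathers it was 91.6%, 90.8% and 90.9% in replicates 1, 2 and 3, above all controls. It was 87.4% in replicate 4, below all controls. The part of these properties in the result was not tested.

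The count of 11 depended on single libraries and on the test. It became 0 without control replicate 2 or 4 or father replicate 1, 4 without father replicate 2, 7 without control replicate 3 and 22 without both-parents replicate 2, while the median stayed between -0.19 and -0.15 when any 1 library was left out. The calls over all transcripts tested moved with it, from 0.424% to 0.00628% without control replicate 2 or father replicate 1, 0.0126% without control replicate 4 and 1.08% without both-parents replicate 2. They were 0.0973% without father replicate 2 and 0.217% without control replicate 3. The members called numbered 39 in DESeq2, beside 2.41% of all tested, 32 with library totals alone, beside 1.07%, and 29 with at least 2 CPM in 4 libraries, beside 1.40%. They numbered 3 in a fit of the 2 groups alone, beside 0.204%, and 2, with a median of 0.04, once a smooth trend on length was removed, beside 0.191%. Removing that trend takes out a shift of members chosen by length by construction.

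Of the 11 members that fell with a BaP-fed father, 10 were members that rose from eggs to embryos. These stage classes were taken from the BaP lineage, whose libraries are in neither group of the paternal comparison, although its 4 embryo libraries enter the fit of all 16 embryo libraries and so the scaling and the error estimate behind the calls. The 128 members that rose there had a median log2 fold change with a BaP-fed father of -0.27, with 113 below 0 and 10 called lower (7.81%). The 81 called in neither direction had a median of -0.21 with 0 called, and the 91 that fell had a median of -0.05 with 1 called (1.10%). The other detected transcripts in the same classes had medians of 0.01, 0.03 and 0.08, with 1.42%, 0.150% and 0.0437% called lower.

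Embryos of 2 BaP-fed parents were set against control embryos. No member passed (edgeR, 0 of 300, beside 0.00575% of the others and 0.00324% of all tested). DESeq2 also called 0 members, beside 0.963% of all transcripts it tested. An unadjusted p under 0.05 was found for 26 (8.67%), beside 13.2% of the others. The median log2 fold change was 0.03 for members and 0.01 for others. ENSDART00000137676.3 (11289 bases) had 83.6, 60.4, 55.8 and 78.1 CPM with both parents BaP-fed, against 54.7, 43.1, 29.8 and 39.5 CPM in controls (log2 difference 0.75 ± 0.29, SE; edgeR adjusted p = 0.423). ENSDART00000179931.1 (10935 bases) had 53.0, 63.6, 61.9 and 55.8 CPM with both parents BaP-fed, against 81.1, 70.0, 93.1 and 67.2 CPM in controls (log2 difference -0.40 ± 0.16, SE; edgeR adjusted p = 0.428). The groups did not overlap for either, and neither passed.

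Embryos of 2 BaP-fed parents were then set against embryos with a BaP-fed father alone, which differ in the mother's diet. In edgeR 54 members were higher and 0 lower (18.0%), beside 3.72% of the others higher and 3.32% lower (7.04% in all, and 5.24% of all transcripts tested). The share called higher was also raised among transcripts of 5001 to 7988 bases (11.8%) and of 8001 to 9043 bases (12.1%). The members' median log2 fold change was 0.19, against -0.02 for the others, and the groups did not overlap upward for 63 members and downward for 1, beside 5.99% and 9.05% of the others. The 54 had log2 fold changes of 0.26 to 1.76 and included the 3 longest members. They also included all 11 that fell with a BaP-fed father, a comparison that shares the libraries of that cross.

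ENSDART00000109099.4, the second longest member, had 29.7, 17.9, 25.5 and 22.9 CPM with both parents BaP-fed, against 8.74, 8.08, 13.1 and 5.24 CPM with the father alone. No library of the first group fell within the second (log2 fold change 1.49 ± 0.28, SE; edgeR adjusted p = 0.0090). ENSDART00000188456.1 (9709 bases) had 5.57, 2.18, 3.96 and 5.38 CPM with both parents BaP-fed, against 1.50, 1.60, 2.00 and 1.22 CPM with the father alone, with replicate 2 of the first group just above the second (log2 fold change 1.47 ± 0.36, SE; edgeR adjusted p = 0.0299). The longest member, ENSDART00000125953.4, had 139.6, 109.7, 153 and 84.3 CPM with both parents BaP-fed, all above the 61.3 to 73.8 CPM with the father alone (log2 fold change 0.85 ± 0.17, SE; edgeR adjusted p = 0.0117). The member of 67298 bases rose by 1.23 ± 0.27 on the log2 scale (SE; edgeR adjusted p = 0.0171). None fell, and the downward one of smallest p, ENSDART00000190921.1 (9935 bases), had 170.6, 171, 172 and 176 CPM with both parents BaP-fed, against 222, 206, 185 and 187 CPM with the father alone (log2 difference -0.17 ± 0.08, SE; edgeR adjusted p = 0.227).

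The call of ENSDART00000188456.1 ended without both-parents replicate 1 or 4 or father replicate 1, 2 or 4 (edgeR adjusted p up to 0.0924). The count of 54 fell to 27 without both-parents replicate 1, to 32 without both-parents replicate 4 or father replicate 1, to 31 without father replicate 4, and to 13 in a fit of the 2 groups alone. The share over all transcripts tested was 2.1%, 2.3%, 2.42%, 2.6% and 0.854% in these 5 fits. With library totals alone 92 were called, beside 6.57% of all tested. With a smooth trend on length removed 20 were higher against 17 lower, and the median was -0.04, beside 4.90% of all tested. Such a removal takes out a shift of members chosen by length by construction. Stage classes were taken from the control lineage, whose libraries are in neither group of this comparison, although its 4 embryo libraries enter the same fit. By these classes, 34 of the 133 members that rose were higher with both parents (25.6%), as were 11 of 65 called in neither direction (16.9%) and 9 of 102 that fell (8.82%). The share among other detected transcripts was 6.77%, 2.18% and 1.65% in these classes.

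Against embryos with a BaP-fed mother alone, embryos of 2 BaP-fed parents had no member past the threshold (edgeR, 0 of 300, beside 0.00% of the others). DESeq2 also called 0 members, beside 0.337% of all transcripts it tested. An unadjusted p under 0.05 was found for 32 (10.7%), beside 7.87% of the others. The median log2 fold change was 0.06 for members and 0.00 for others. ENSDART00000126777.3 (9787 bases) had 6.39, 6.35, 8.20 and 5.85 CPM with both parents BaP-fed, against 5.56, 3.91, 5.05 and 5.03 CPM with the mother alone (log2 difference 0.47 ± 0.16, SE; edgeR adjusted p = 0.709). ENSDART00000052915.8 (12257 bases) had 42.9, 35.4, 42.4 and 42.0 CPM with both parents BaP-fed, against 48.6, 46.4, 46.6 and 55.3 CPM with the mother alone (log2 difference -0.26 ± 0.17, SE; edgeR adjusted p = 0.828). Neither pair of groups overlapped.

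Whether the effect of a BaP-fed father depended on the mother's diet was tested as an interaction, the paternal log2 effect with BaP-fed mothers minus that with control mothers. It was positive and past the threshold for 15 members and negative for 0 (5.00%), beside 1.21% positive and 0.121% negative among the others, 1.33% in all, and 0.900% of all transcripts tested (edgeR). The positive share was 4.47% for transcripts of 5001 to 7988 bases and 2.33% for 8001 to 9043 bases, so a raised share was not particular to the members. The members' median was 0.26, against -0.04 for the others. For ENSDART00000169283.2 (10495 bases) the cross of both BaP-fed parents had 18.7, 18.3, 17.0 and 16.7 CPM, against 13.8, 14.8, 10.6 and 12.4 CPM with the mother alone. The cross of the BaP-fed father alone had 8.18, 7.91, 8.96 and 3.76 CPM, against 15.98, 16.8, 13.5 and 11.6 CPM in controls. A BaP-fed father thus went with higher values beside a BaP-fed mother and with lower values beside a control mother, without overlap in either case (interaction 1.50 ± 0.30 on the log2 scale, SE; edgeR adjusted p = 0.0349). Neither difference passed in edgeR on its own. The interaction call ended without 12 of the 16 libraries taken singly, and held only without control replicate 4, both-parents replicate 2, or father replicate 3 or 4 (edgeR adjusted p up to 0.0893).

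ENSDART00000169505.2 had 92.4, 55.4, 95.9 and 84.0 CPM with both parents BaP-fed, against 66.2, 54.7, 80.3 and 54.4 CPM with the mother alone, and these groups overlapped. With the father alone it had the 33.1 to 40.0 CPM already given, below all controls (interaction 1.36 ± 0.23, SE; edgeR adjusted p = 0.0150). The negative interaction of smallest p, that of ENSDART00000190921.1, was -0.25 ± 0.11 (SE; edgeR adjusted p = 0.376). The 15 members had 9066 to 16015 bases. The cross of the BaP-fed father alone had the lowest mean of the crosses for all 15. All 15 were among the 54 members higher with both parents than with the father alone. Among them were 9 of the 11 that fell with a BaP-fed father. These comparisons share the libraries of that cross, so the interaction is no separate evidence. The count was 7 without mother replicate 2, 8 without both-parents replicate 1 or 3 or father replicate 1, 9 without control replicate 2, both-parents replicate 4, father replicate 2 or mother replicate 1 or 4, 6 with a smooth trend on length removed, 29 with library totals alone and 38 in DESeq2. Of all transcripts tested, 0.282% passed without mother replicate 2, 0.495% with the trend removed, 1.63% with library totals alone and 3.64% in DESeq2. In the other fits named here with a library left out, 0.289% to 0.526% of all tested passed, against 0.900% with all libraries. Calls thus fell among all transcripts as well. Taking out the trend removes a shift of members chosen by length by construction.

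Replicates of the members spread more than those of other transcripts of the same level below 128 CPM, and about as much above it. The median SD of log2 CPM within groups was 0.268 for members and 0.262 for others, although members had more counts, with a median counting error of 0.041 and 0.059. Below 8 CPM the median SD was 0.475 for members and 0.379 for others, from 8 to 32 CPM 0.344 and 0.248, from 32 to 128 CPM 0.202 and 0.168, and from 128 CPM 0.145 and 0.148. Within the members it was 0.336 for the 100 longest and 0.230 and 0.250 for the next 2 classes of 100. ENSDART00000112067.4, with its single high control egg library, had the widest spread at 1.16. The median dispersion that edgeR fitted to the embryos, given as a coefficient of variation, was 0.172 for members and 0.179 for others.

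**Figure D5:**
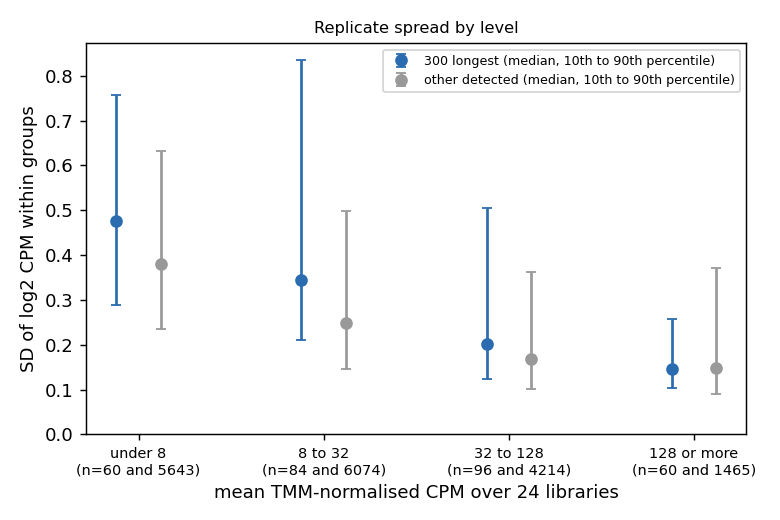
Within-group SD of log2 CPM (y) by mean level class in TMM-normalised CPM (x, numbers of members and of others in parentheses); points are medians and bars run from the 10th to the 90th percentile of transcripts. Members lie above the others in the 3 classes below 128 CPM.

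Estimated counts are shared out between transcripts where reads match several. Counts were whole in all 24 libraries for 34 members (11.3%) and for 19.5% of the others, and a whole count is a sign of a transcript with no such sharing. The median log2 fold change with a BaP-fed father was -0.12 over those 34 members, of which 0 were called, and -0.19 over the other 266, of which 11 were called. Among the other detected transcripts 0.0887% were called of those with whole counts and 0.721% of the rest, so calls were rarer among whole counts in general. With both parents BaP-fed against the father alone the medians were 0.17 and 0.20, with 4 called higher (11.8%) and 50 called higher (18.8%), beside 1.65% and 4.22% of the other detected transcripts. In the stage comparison of the control lineage the medians were -0.64 and 0.24, and the other detected transcripts split the same way, at -0.38 and 0.02. Members thus lay below the others over whole counts and above them over the rest, so the gap changed sign. In the BaP lineage the medians over whole counts were -0.29 for members and -0.34 for others. Over the rest they were 0.30 and 0.03.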

How the data were processed

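RNA of 24 zebrafish samples was measured by sequencing of ribosome-depleted total RNA as read pairs, per the labels' protocols; the 32 bisulfite samples were not analysed here. Per the submitters' processing notes, FastQC, Salmon and DESeq2 were used with build GRCz11; no versions are given in the sources used here. The deposited tables give, per the file headers, length, effective length, TPM and an estimated count per row. The TPM values were deposited per library and sum to 1000000. The rows carry transcript identifiers and are treated as transcripts. The members and lists were chosen with earlier results of these data known.

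Estimated counts were rounded. The tests used R 4.3.3 and edgeR 4.0.16, with limma 3.58.1 for an alternative, and TMM factors, filterByExpr by group, robust glmQLFit and glmQLFTest, with Benjamini-Hochberg adjustment over all rows tested and calls at an adjusted p under 0.05. Stage and egg comparisons were fitted on their 8 libraries and embryo comparisons on all 16. Between 29023 and 30948 transcripts were tested per comparison, and all 300 members passed the filter. Printed CPM values use TMM factors of all 24 libraries, and SDs of log2 CPM a prior count of 2. A library held between 26010776 and 55044612 estimated counts in total. Counting limits cover sampling error only. The identifiers named are, per comparison, up to 2 members with the largest change upward and 2 downward among those called without overlap, or the non-overlapping one of smallest p where none was called, besides the longest member and that of highest mean TPM. For the interaction no overlap rule was applied. The third longest member is given by its length and was chosen after its values were seen. The fitting code was tested on simulated data. Alternatives were RLE, upper-quartile and no scaling factors, other low-count filters, DESeq2 1.42.0, a replicate block, a length trend removed, other sets of libraries, each library left out, limma on log2(TPM + 0.1) and other member rules. The limma fit, the library totals and the restriction to whole counts were chosen after seeing the data.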

Additional observations from a re-analysis of the deposited data

Results flagged for a closer look

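The effect of a BaP-fed father differed with the mother's diet for 15 members (5.00%) by the interaction test, beside 1.33% of the others and 0.900% of all tested. All 15 were positive, and 4.47% of the detected transcripts of 5001 to 7988 bases were called positive as well. The cross of the BaP-fed father alone had the lowest mean of the crosses for all 15. They were all among the 54 members higher with both parents than with the father alone, a comparison that shares the libraries of that cross. With a library left out 7 to 21 members were called, beside 0.282% to 1.33% of all tested. Of the members named here, ENSDART00000169283.2 had an interaction of 1.50 on the log2 scale, ENSDART00000169505.2 of 1.36, ENSDART00000109485.5 of 1.33 and ENSDART00000126777.3 of 1.25. The call of ENSDART00000169283.2 ended without 12 of the 16 libraries taken singly, and that of ENSDART00000169505.2 held without each.

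In 14 of 156 groups of 4 libraries, 1 library stood apart, with a gap to the nearest other library beyond Dixon's critical value for 4 samples; chance gives about 1 in 20. Among control eggs this held for the members' share of counts (gap of 0.906 of the range), ENSDART00000112067.4 (0.955), ENSDART00000135230.2 (0.855) and ENSDART00000137676.3 (0.836). In eggs of BaP-fed mothers it held for ENSDART00000142155.3 (0.949). Among embryos of 2 BaP-fed parents it held for the members' share (0.866), ENSDART00000052915.8 (0.880), ENSDART00000097773.5 (0.967) and ENSDART00000102566.5 (0.905). With a BaP-fed father it held for ENSDART00000102566.5 (0.848) and ENSDART00000135230.2 (0.866), and with a BaP-fed mother for ENSDART00000109099.4 (0.833) and ENSDART00000152876.2 (0.972). In control embryos it held for ENSDART00000151234.2 (0.839).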

How the results depend on the processing

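Some directions turned. The members' median log2 fold change was -0.20 with library totals and -0.05 with the length trend removed in the control lineage, against 0.16, and -0.11 and -0.04 in the BaP lineage, against 0.23. With the length trend removed it was 0.04 for BaP-fed fathers, against -0.18, -0.04 for both parents over father alone, against 0.19, and -0.03 for the interaction, against 0.26. Removing the trend takes out a shift of members chosen by length by construction, so these turns are no result. The median over whole-count members was -0.64 in the control and -0.29 in the BaP lineage, beside -0.38 and -0.34 over the other detected transcripts with whole counts. Calls in the control lineage numbered 235 (225 to 229 with a library left out), 118 for the 150 longest and 466 for the 600 longest. Those in the BaP lineage numbered 219 (204 to 219), 110 and 443. Over the 34 whole-count members they numbered 24 (70.6%) in the control and 23 (67.6%) in the BaP lineage. The other detected transcripts with whole counts had 79.9% and 77.7% called. For eggs the count was 0 (0 to 0), 2 in DESeq2 and 1 in the fit of all 24 libraries. For BaP-fed fathers it was 11 (0 to 22), 32 with library totals, 29 with at least 2 CPM in 4 libraries, 39 in DESeq2, 2 with the length trend removed, 3 in the 2 groups alone, 3 for the 150 longest and 0 over whole-count members. For both parents over father alone it was 54 (27 to 56), 92 with library totals, 13 in the 2 groups alone, 30 for the 150 longest, 94 for the 600 longest and 4 over whole-count members. For the interaction it was 15 (7 to 21), 29 with library totals, 38 in DESeq2, 6 with the length trend removed, 3 for the 150 longest, 24 for the 600 longest and 0 over whole-count members. The other 3 diet comparisons stayed at 0. Limma on TPM gave 12 for BaP-fed fathers, 64 for both parents over father alone and 15 for the interaction, beside 0.803%, 5.91% and 1.22% of all tested. The share of counts in control embryos minus control eggs was 0.290 percentage points with at least 50 counts and -0.011 for the 600 longest; with BaP-fed fathers minus controls it was -0.247 for the 150 longest and -0.604 for the 600 longest; with both parents minus father alone 0.252 and 0.681. The replicate block gave 6 calls for BaP-fed fathers, beside 0.223% of all tested, and 50 for both parents over father alone, beside 4.42%. It gave 11 for the interaction, beside 0.466%, and 225 and 215 for the stages, beside 71.6% and 70.0%. Whether replicate numbers pair the samples was not settled. Of 32 same-number correlations, from -0.16 to 0.31, 8 were over 0.1. The own number was the best match in 13 of these 32, among them all 4 of both parents with mother alone, at 0.088 to 0.31. It was never the best match for control embryos with control eggs or for both parents with father alone. The same held for embryos of BaP-fed mothers or fathers with control embryos. With 4 numbers to choose from, some own matches arise by chance. A smaller set of members holds fewer calls and a larger set more by construction, so counts from sets of unlike size do not show a change. Leaving out a library lowered some counts and raised others, and the cause of these and the other shifts was not tested.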
